A study of Mus musculus with 12 samples.

Results

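Expression of 36 cell cycle and proliferation genes was measured in the left ventricular muscle of 12 mice. The genes were listed by symbol, for their known part in cell division, and all 36 were found by their NCBI Gene ID among the 18079 genes of the deposited table. They comprised 9 cyclins and cyclin-dependent kinases (CDKs), 10 genes of DNA replication and nucleotide supply, 15 genes of the chromosomes, the spindle and mitotic exit, and 2 CDK inhibitors. C57BL/6 mice (male C57BL/6J per the study's methods) underwent aortic banding (AB), in which a ligature around the descending aorta makes the left ventricle pump against a raised pressure, or sham surgery, at an age of 8 weeks. From 1 day before surgery they received hispidulin, a plant flavonoid, at 20 mg/kg/day by intraperitoneal injection, or its solvent DMSO. The ventricles were taken 4 weeks after surgery, at 12 weeks of age. Each of the 4 groups (DMSO+Sham and DMSO+AB for the solvent, Hispidulin+Sham and Hispidulin+AB for the drug) held 3 mice with 1 library per mouse, and no group carried a genetic change.

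A cell divides by passing through phases driven by CDKs, each switched on by its cyclin. D-type cyclins with CDK4 open the way out of the resting state, cyclin E and cyclin A with CDK2 drive the copying of DNA, and cyclin B with CDK1 drives mitosis, while inhibitors such as p21 hold the kinases back. Most heart muscle cells of an adult mouse no longer divide, and the dividing cells of an adult heart are largely fibroblasts, endothelial cells and immune cells, so transcripts of dividing cells are rare in whole ventricle. In whole tissue, fewer cells of a type and less RNA per cell cannot be told apart.

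Values were FPKM, read counts scaled to transcript length and library size, which allow levels of different genes to be compared per length. The depth of the libraries is not known and counting errors are not given. Summed over all genes, FPKM lay between 535235 and 567027 per mouse. Heart muscle markers were abundant in every mouse, with a summed FPKM of 38790 to 56360 over 8 genes. In 3 libraries the atrial light chain gene Myl7 stood above the other mice, which had 0.24 to 15.03: Hispidulin+Sham 3 had 333.05, DMSO+AB 2 had 67.54 and Hispidulin+AB 3 had 42.26. In DMSO+Sham 3 the summed FPKM of 7 lymphocyte and neutrophil markers was 53.1 against 0.93 to 31.5 elsewhere, nearly all of it from S100a8 and S100a9. The animal numbers in the labels fell into a lower and a higher series, with DMSO+Sham 1 in neither, and the labels do not say what sets the series apart.

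Of the 36 genes, 16 (44.4%) reached an FPKM of 1 in every mouse, 6 reached it in some mice, and 14 (38.9%) reached it in no mouse. Of all genes in the table, 57.5% reached it in every mouse and 32.4% in no mouse. Single mice had between 16 genes (DMSO+Sham 1) and 20 genes (DMSO+Sham 2, DMSO+AB 2, DMSO+AB 3 and Hispidulin+AB 2) at FPKM 1. By group mean, 17 genes reached 1 in DMSO+Sham, 18 in Hispidulin+Sham and 19 in each AB group, whereas among all 18079 genes the share was 63% in DMSO+Sham and 62.3% in DMSO+AB. Those with a mean under 1 in DMSO+Sham but not after banding were Mcm5, a subunit of the replicative helicase, and Cdc20, an activator of the anaphase-promoting complex.

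The level depended on the role of the gene. Of the replication genes, 8 of 10 reached FPKM 1 in every mouse and the other 2, Mcm5 and Rrm2, in 7 and 11 mice. The highest of them was Pcna, the sliding clamp of DNA polymerase, at a median of 33.3 over the 12 mice. Among the 9 cyclins and kinases, Ccnd1, Ccnd2, Cdk4 and Cdk2 reached 1 in every mouse, with medians of 23.2, 24.2, 33.5 and 5.93. The cyclins E, A and B and Cdk1 lay far below, with medians from 0.19 for Ccnb1 to 0.66 for Ccne1. Ccnb1 and Cdk1 were both listed at 0 in Hispidulin+Sham 1. Of the 15 genes of chromosomes and mitosis, only Cenpa and Ube2c reached 1 in every mouse, and 11 reached it in none, among them Mki67, the gene of the proliferation antigen Ki-67, which ranged from 0.06 to 0.58. Cenpa, the centromeric variant of histone H3, was the exception of this group, with a median of 31.5 against 3.15 for Ube2c, the ubiquitin-conjugating enzyme of mitotic exit, and 0.055 for the centromere motor Cenpe. Both inhibitors reached 1 in every mouse, with medians of 54.5 for Cdkn1a, which encodes p21, and 12.8 for Cdkn1c, which encodes p57.

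**Figure D1:**
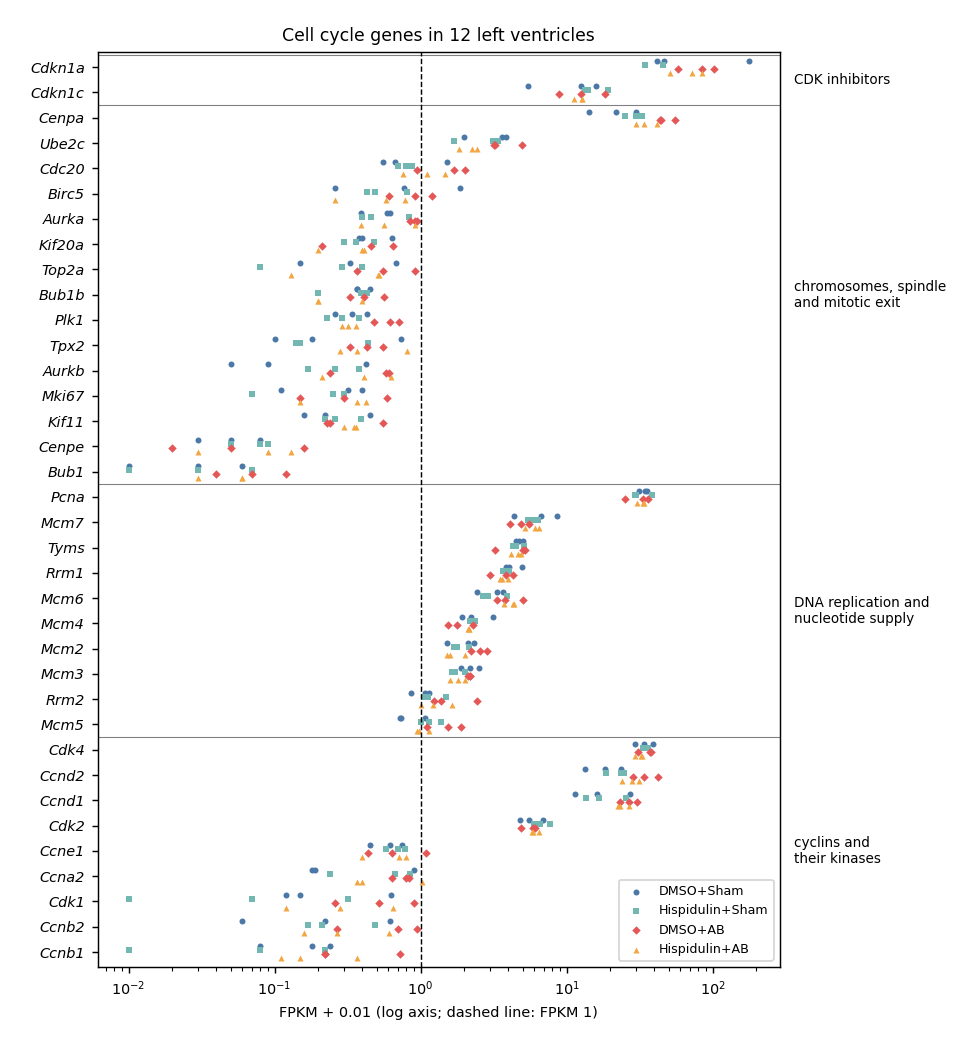
FPKM plus 0.01 (log axis) of the 36 genes in each of the 12 mice, grouped by role, with one symbol and colour per group and a dashed line at FPKM 1. The inhibitors and 8 of the 10 replication genes lie above the line in every mouse, whereas 11 of the 15 genes of chromosomes and mitosis lie below it in every mouse.

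Many genes of mitosis share a promoter element, the cell cycle genes homology region (CHR, letters TTTGAA), to which the repressing DREAM complex of resting cells binds, often with CCAAT boxes of the factor NF-Y upstream, and many replication genes carry sites of E2F factors. RefSeq promoters (build GRCm38.p6, 250 bases before to 50 after the start) were found for 28 of the 36 genes, as 30 windows of 300 bases. The letters were searched on both strands as TTTGAA for the CHR, CCAAT for the CCAAT box, and TTCCCGC or TTGGCGC for E2F. The CHR letters were present in 9 of 12 genes of chromosomes and mitosis, in 2 of 6 cyclins and kinases (Cdk1 and Ccnb2) and in 1 of 9 replication genes (Mcm2), and 17.9% of all 32851 RefSeq mouse promoters held them. CCAAT was present in 11 of the 12 genes of chromosomes and mitosis, in 8 of the 9 replication genes, in 4 of the 6 cyclins and kinases, and in 37.4% of all promoters. The E2F letters were present in 5 of 9 replication genes, in 3 of 6 cyclins and kinases (Ccnb1, Cdk1 and Cdk2), in 1 of 12 genes of chromosomes and mitosis and in 6.81% of all promoters. E2F and CCAAT letters shared bases in Ccnb1 and Mcm7. Stretches of 120 bases are shown for genes described below, from 5′ to 3′ on the strand of the gene, with the matched letters of either strand in capitals. Cdk1 (chr10:69352913-69353032, minus strand), Cdc20 (chr4:118437344-118437463, minus), Top2a (chr11:99024190-99024309, minus) and Ube2c (chr2:164769809-164769928, plus) show CCAAT boxes with a CHR. Cenpa (chr5:30666790-30666909, plus) is shown because it was the one gene of mitosis that passed the test below, and its window runs 24 bases past the start, where its CHR letters lie. Mcm6 (chr1:128359706-128359825, minus) shows the E2F letters of a helicase gene. Matches are descriptions of the letters and do not show binding.
Cdk1: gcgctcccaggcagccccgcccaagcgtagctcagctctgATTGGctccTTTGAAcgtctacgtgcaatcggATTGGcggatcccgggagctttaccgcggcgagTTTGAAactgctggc
Cdc20: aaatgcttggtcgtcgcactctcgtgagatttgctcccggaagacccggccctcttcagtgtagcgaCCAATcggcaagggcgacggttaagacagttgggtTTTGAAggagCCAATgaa
Top2a: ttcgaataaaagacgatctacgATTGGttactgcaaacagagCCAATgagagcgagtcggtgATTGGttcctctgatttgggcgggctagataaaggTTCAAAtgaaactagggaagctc
Ube2c: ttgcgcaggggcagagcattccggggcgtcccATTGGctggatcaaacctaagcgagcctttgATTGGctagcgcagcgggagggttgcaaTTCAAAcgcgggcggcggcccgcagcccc
Cenpa: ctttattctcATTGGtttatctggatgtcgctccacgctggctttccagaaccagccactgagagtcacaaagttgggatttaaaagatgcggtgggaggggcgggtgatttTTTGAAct
Mcm6: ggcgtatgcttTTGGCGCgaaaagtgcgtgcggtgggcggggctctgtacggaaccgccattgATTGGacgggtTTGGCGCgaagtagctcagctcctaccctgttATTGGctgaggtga

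**Figure D2:**
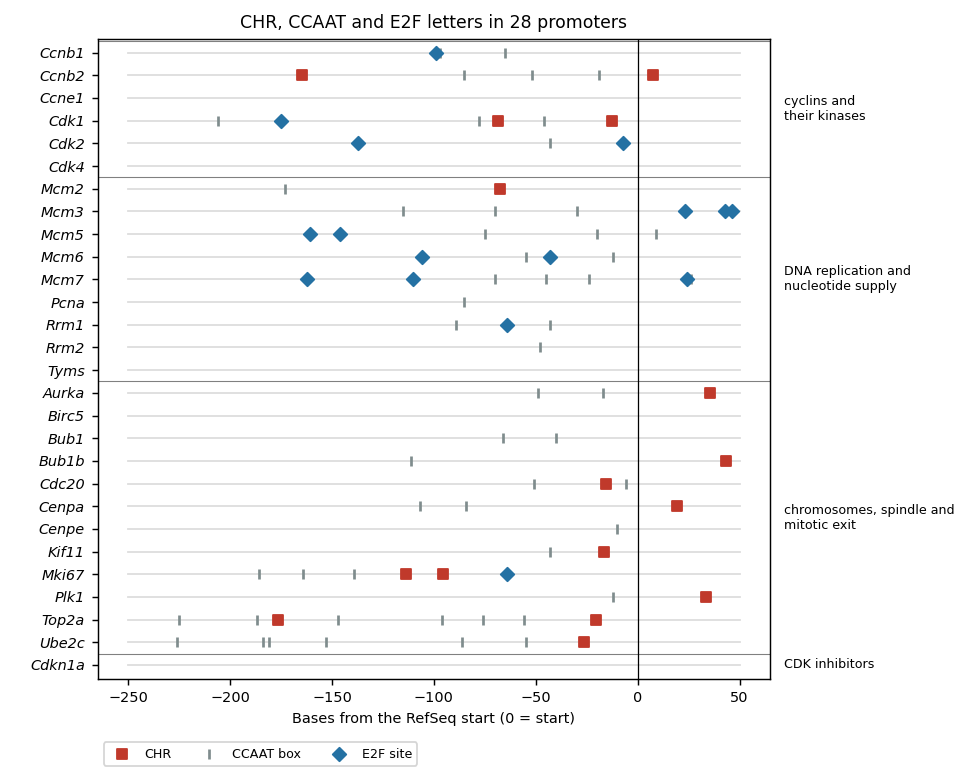
Position of CHR (red squares), CCAAT (grey ticks) and E2F (blue diamonds) letters in the RefSeq promoters of 28 genes, as the distance in bases of the match's centre from the start at 0, with the 2 windows of Mcm7 and of Cdkn1a drawn on 1 line each. CHR letters appear in 9 of the 12 genes of chromosomes and mitosis and in 1 of the 9 replication genes.

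The first comparison asked which of these genes changed with pressure overload, in DMSO+AB against DMSO+Sham. Cenpa and the cyclin gene Ccnd2 rose, and no gene of the 36 fell past the threshold. Differences were tested with limma on log2(FPKM + 1), so that fold changes of low genes are understated, and a gene passed at a Benjamini-Hochberg adjusted p under 0.05. Entry to the test required FPKM 1 or more in 3 or more mice, which held for 19 of the 36 genes and for 11664 of all genes. Of the 19, 2 passed and both were higher, where 5.21% of all genes tested passed and 2.5% passed and were higher. The median log2 fold change was 0.22 over the 19 and -0.035 over all genes tested. The 17 genes below the filter had no p from limma.

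The FPKM of Cenpa was 21.83, 29.93 and 14.33 in DMSO+Sham mice 1 to 3, and 55.18, 44.65 and 43.87 in DMSO+AB mice 1 to 3. It was 25.24, 29.89 and 32.83 in Hispidulin+Sham and 33.83, 30.14 and 41.68 in Hispidulin+AB. Every DMSO+AB mouse lay above all 9 other mice. The mean was 47.9 ± 6.32 (SD, n = 3) in DMSO+AB against 22.03 ± 7.80 in DMSO+Sham, 2.17 times as high, and the log2 fold change was 1.14 (standard error 0.22, adjusted p = 0.0168 from limma). Within the lower series of animal numbers, 1 mouse against 1, the log2 difference was 0.54, and within the higher series, 2 against 1, it was 1.72. The only DMSO+Sham mouse of the higher series was DMSO+Sham 3, the lowest of the 12 mice for Cenpa. Without that mouse the log2 fold change was 0.872. The adjusted p was 0.0537 with the number series as a covariate, 0.0584 without DMSO+Sham 1, 0.0566 without DMSO+AB 2 and 0.126 without the 3 libraries of highest Myl7. RefSeq places no other gene across Cenpa. Hjurp, the chaperone that loads CENP-A at centromeres, was looked up after these values were seen, and its FPKM was 7 to 8.32 in DMSO+Sham and 7.80 to 8.44 in DMSO+AB, groups that overlapped.

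The FPKM of Ccnd2, which encodes cyclin D2, was 18.33, 23.45 and 13.29 in DMSO+Sham and 28.43, 42.16 and 33.85 in DMSO+AB. The hispidulin-treated mice had 18.66, 24.64 and 23.58 after sham surgery and 23.85, 28.09 and 31.32 after banding. The DMSO+AB mice lay above all mice of both sham groups. The mean rose from 18.4 ± 5.08 to 34.8 ± 6.92 (SD, n = 3), and the log2 fold change was 0.90 (standard error 0.20, adjusted p = 0.0268 from limma). It was 0.51 in the lower and 1.32 in the higher series of animal numbers. The only DMSO+Sham mouse of the higher series, DMSO+Sham 3, was again the lowest of the 12 mice. Without it the log2 fold change was 0.702. The adjusted p was 0.07 with the number series as a covariate, 0.0856 without DMSO+Sham 1, 0.106 without DMSO+AB 2 and 0.206 without the 3 libraries of highest Myl7. A long noncoding RNA gene, 9330179D12Rik, overlaps Ccnd2 in RefSeq, and whether the counting used strand is not given in the sources used here. Ccnd1, which encodes cyclin D1, is named beside it although it met no rule for a full account. It ranged from 11.37 to 27.12 in DMSO+Sham and from 23.29 to 30.48 in DMSO+AB, with a log2 fold change of 0.62 (adjusted p = 0.221 from limma). Its sign differed between the series of animal numbers, at -0.21 in the lower and 0.80 in the higher. The kinase genes Cdk4 and Cdk2, the latter lying wholly within the Pmel gene, differed by 0.05 and -0.03 on the log2 scale, with groups that overlapped.

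Among the 10 replication genes, 0 passed in limma and 2 had an unadjusted p under 0.05, as did 20.4% of all genes tested, with 4 higher, 6 lower and a median log2 fold change of -0.05. These 2 were also the ones whose DMSO+AB mice all lay above the DMSO+Sham mice. The FPKM of Mcm5 was 0.71, 1.07 and 0.73 in DMSO+Sham, 1.1, 1.87 and 1.53 in DMSO+AB, 0.99, 1.37 and 1.13 in Hispidulin+Sham and 0.97, 1.14 and 0.93 in Hispidulin+AB. The log2 fold change of Mcm5 under AB was 0.44 (standard error 0.14, unadjusted p = 0.00947, adjusted p = 0.102 from limma), with 0.29 and 0.505 within the lower and higher series of animal numbers. The closest pair between DMSO+Sham and DMSO+AB was 1.07 and 1.1. The FPKM of Rrm2, the subunit of ribonucleotide reductase made in S phase, was 0.85, 1.13 and 1.06 in DMSO+Sham, 1.37, 2.43 and 1.23 in DMSO+AB, 1.05, 1.11 and 1.49 in Hispidulin+Sham and 1, 1.63 and 1.21 in Hispidulin+AB. The log2 fold change of Rrm2 under AB was 0.39 (standard error 0.17, unadjusted p = 0.0458, adjusted p = 0.234 from limma), and 0.19 without DMSO+AB 2. The 6 helicase subunits, which act as 1 ring, did not share a direction. Mcm6 and Mcm2 had log2 fold changes of 0.29 and 0.25, Mcm3 of -0.01, and Mcm4 and Mcm7 of -0.25 and -0.34, and the smallest adjusted p of these 5 was 0.33 in limma. Mcm7 was 0.295 in the lower and -0.50 in the higher series of animal numbers, and it overlaps Ap4m1 and holds 3 miRNA genes. Pcna, Tyms (thymidylate synthase) and Rrm1 had log2 fold changes of -0.11, -0.09 and -0.165, and none of the 3 passed.

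Besides Cenpa, 2 genes of mitosis were tested. Cdc20 had a mean FPKM of 0.907 ± 0.535 (SD, n = 3) in DMSO+Sham and 1.54 ± 0.551 in DMSO+AB and a log2 fold change of 0.42 (95% interval -0.04 to 0.89, adjusted p = 0.287 from limma). It entered the test through 4 AB mice and 1 sham mouse at FPKM 1, and it overlaps Elovl1. Ube2c had a log2 fold change of 0.22 (adjusted p = 0.634 from limma). Over the 19 genes tested, the 3 DMSO+AB mice lay above the 3 DMSO+Sham mice in 4 genes (Ccnd2, Mcm5, Rrm2 and Cenpa) and below them in 0, where 7.18% of all genes tested were separated upward and 10.8% downward.

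**Figure D3:**
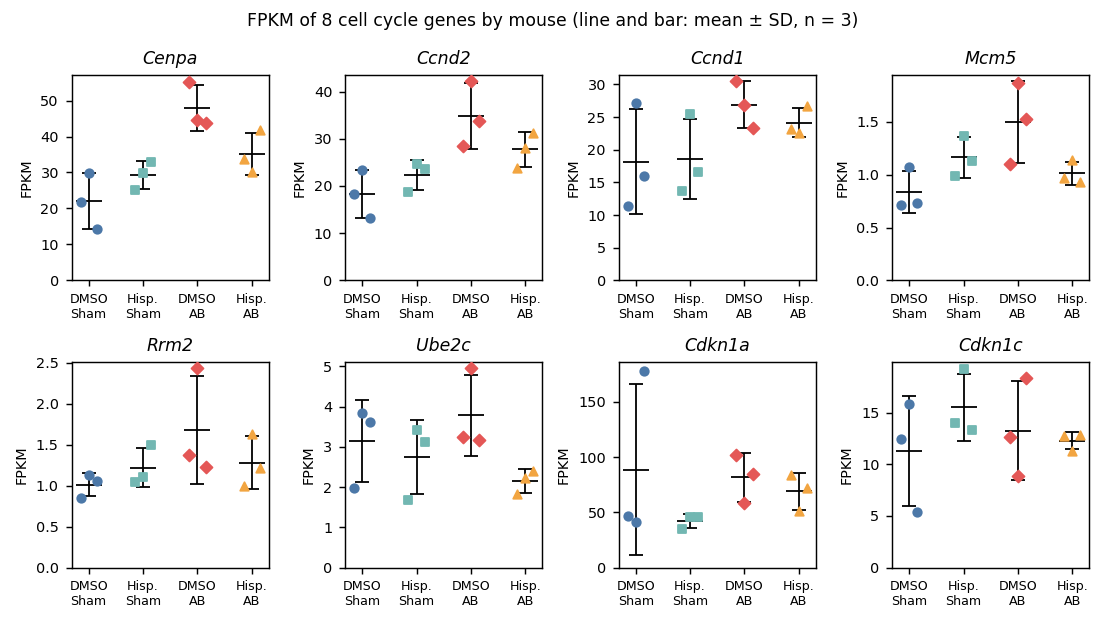
FPKM of 8 cell cycle genes in each mouse of the 4 groups (linear axes from 0), where the line and bar are the mean ± SD (n = 3). For Cenpa and Ccnd2 every DMSO+AB mouse lies above every sham mouse, and 1 DMSO+Sham mouse of Cdkn1a lies at 177.75, above all others.

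The 17 genes below the filter were compared by an exact two-sided permutation test of log2(FPKM + 1) per gene, which cannot give a p under 0.1 with 3 mice against 3. Their mean was higher in DMSO+AB in 16 and lower in 1, with a median difference of 0.13 on the log2 scale, whereas 41% of all 6308 genes below the filter were higher and 47.9% lower. Here and below, these 6308 leave out 107 genes at 0 in every mouse. Within the lower series of animal numbers, 1 mouse against 1, 7 of the 17 were higher and 10 lower, against 30.6% and 40.7% of all genes below the filter. Within the higher series, 2 against 1, 16 were higher and 1 lower, against 42.4% and 39.8%. The difference between the series was not tested, and many of all genes below the filter had equal values. In 2 of the 17, Aurka and Plk1, the groups were separated upward (exact p = 0.1), where 3.99% of all genes below the filter were. The FPKM of Aurka, a kinase of centrosomes and spindle poles, was 0.38, 0.58 and 0.61 in DMSO+Sham and 0.84, 0.93 and 0.9 in DMSO+AB. In Hispidulin+Sham it was 0.45, 0.83 and 0.39, and in Hispidulin+AB 0.38, 0.9 and 0.55, so the DMSO+AB mice lay above both sham groups, by 0.84 against 0.83 at the closest pair, and overlapped with Hispidulin+AB. The FPKM of Plk1, a kinase of mitotic entry and exit, was 0.25, 0.42 and 0.33 in DMSO+Sham, 0.28, 0.22 and 0.37 in Hispidulin+Sham, 0.47, 0.61 and 0.7 in DMSO+AB and 0.28, 0.31 and 0.35 in Hispidulin+AB. Each DMSO+AB mouse exceeded all 9 other mice in Plk1.

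Many of the low genes had their high values in the same few mice. Their summed FPKM was 3.37, 9.57 and 4.74 in DMSO+Sham mice 1 to 3 and 5.85, 11.19 and 8.6 in DMSO+AB mice 1 to 3. It was 3.55, 6.14 and 5.82 in Hispidulin+Sham and 3.46, 9.01 and 5.92 in Hispidulin+AB. The groups overlapped, with the sham mouse DMSO+Sham 2 second to DMSO+AB 2. In DMSO+AB 2, 10 of the 17 genes had their highest value of the 12 mice, among them Mki67, Top2a, Cdk1, Ccnb1 and Ccnb2. DMSO+Sham 2 exceeded both mice of its own group in 14 of the 17, and Hispidulin+AB 1 lay below both of its own group in 16. In Hispidulin+Sham the highest values were divided between mouse 2 (9 genes) and mouse 3 (7 genes). For Birc5, the survivin gene, the highest of the 12 values was in a sham mouse, 1.86 in DMSO+Sham 2. FPKM were rounded to 0.01, and Bub1, Cdk1 and Ccnb1 were listed at 0 in 1 or 2 mice. DMSO+AB 2 also carried the highest summed FPKM of 8 fibroblast markers, 940, and of 6 macrophage markers, 249.5, and a high Myl7, and their part in the result was not tested.

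**Figure D4:**
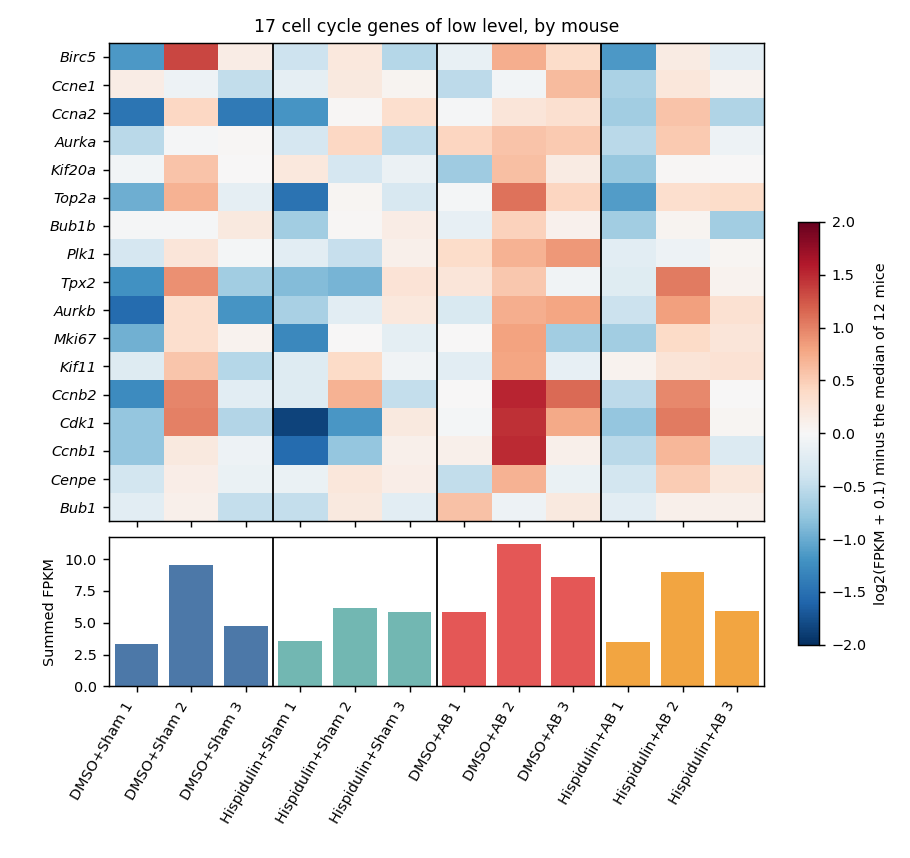
Top, the 17 genes below the filter in each mouse as log2(FPKM + 0.1) minus the gene's median over the 12 mice (red higher, blue lower). Bottom, the summed FPKM of the 17 genes per mouse, from 3.37 in DMSO+Sham 1 to 11.19 in DMSO+AB 2, with the second highest sum, 9.57, in the sham mouse DMSO+Sham 2.

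The second comparison asked which genes differed with hispidulin after banding, in Hispidulin+AB against DMSO+AB. Of the 19 genes tested, 0 passed in limma and 2 (Mcm2 and Ube2c) had an unadjusted p under 0.05, where the share of all 11664 genes was 0% and 362 had such a p. With hispidulin 12 of the 19 were lower and 7 higher, and their median log2 fold change was -0.155 against 0.005 over all genes tested. In 4 of the 19 (Mcm2, Mcm3, Cenpa and Ube2c) the Hispidulin+AB mice all lay below the DMSO+AB mice and in 0 above, where 3.65% of all genes tested were separated downward and 4.23% upward. These DMSO+AB mice are the same as in the comparison with sham surgery, so the 2 comparisons are not independent.

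The FPKM of Mcm2 was 2.2, 2.83 and 2.53 in DMSO+AB and 1.52, 1.59 and 2.01 in Hispidulin+AB, and 2.09, 2.32 and 1.5 in DMSO+Sham and 1.76, 2.14 and 1.68 in Hispidulin+Sham. Its log2 fold change with hispidulin was -0.38 (standard error 0.14, unadjusted p = 0.018, adjusted p = 0.996 from limma), with -0.23 in the lower and -0.455 in the higher series of animal numbers. The FPKM of Ube2c was 3.24, 4.95 and 3.17 in DMSO+AB and 1.82, 2.23 and 2.41 in Hispidulin+AB, a log2 fold change of -0.59 (standard error 0.23, unadjusted p = 0.0258, adjusted p = 0.996 from limma). The sham mice overlapped with both AB groups, with 1.98, 3.84 and 3.62 in DMSO+Sham and 1.69, 3.41 and 3.13 in Hispidulin+Sham, and DMSO+AB 2 lay above all of them. The FPKM of Mcm3 was 2.17, 2.18 and 2.1 in DMSO+AB and 1.81, 1.58 and 2 in Hispidulin+AB, against 2.16, 2.51 and 1.87 in DMSO+Sham and 2.01, 1.72 and 1.64 in Hispidulin+Sham. The groups were separated by a narrow gap, and the log2 fold change of Mcm3 was -0.17 (95% interval -0.43 to 0.08, adjusted p = 0.996 from limma).

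Cenpa, with the values given above, had a log2 fold change of -0.44 with hispidulin after banding (95% interval -0.91 to 0.04, unadjusted p = 0.0684, adjusted p = 0.996 from limma). The closest pair was 41.68 in Hispidulin+AB 3 and 43.87 in DMSO+AB 3, both of the lower series of animal numbers, where the difference was -0.07, against -0.62 in the higher series. Ccnd2 had a log2 fold change of -0.31 (95% interval -0.74 to 0.13), and its groups overlapped. Among the 17 genes below the filter, the mean was lower with hispidulin in 14 and higher in 3, with a median difference of -0.16 on the log2 scale, whereas 48.1% of all genes below the filter were higher and 40.8% lower. Within the lower series of animal numbers, 1 mouse against 1, 13 of the 17 were lower. Of all genes below the filter 30% were lower and 42% higher there, and 1771 had equal values, against 0 of the 17. Within the higher series, 2 against 2, 14 were lower, against 42.5% lower and 41.3% higher of all genes below the filter. Only Plk1 was separated downward (exact p = 0.1, the smallest possible), where 1.85% of all genes below the filter were. For the 19 genes, the 95% intervals reached from -1.19 at the low end for Cdkn1a to 0.73 at the high end for the same gene, which is the error of 3 mice against 3 for the least precise gene.

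**Figure D5:**
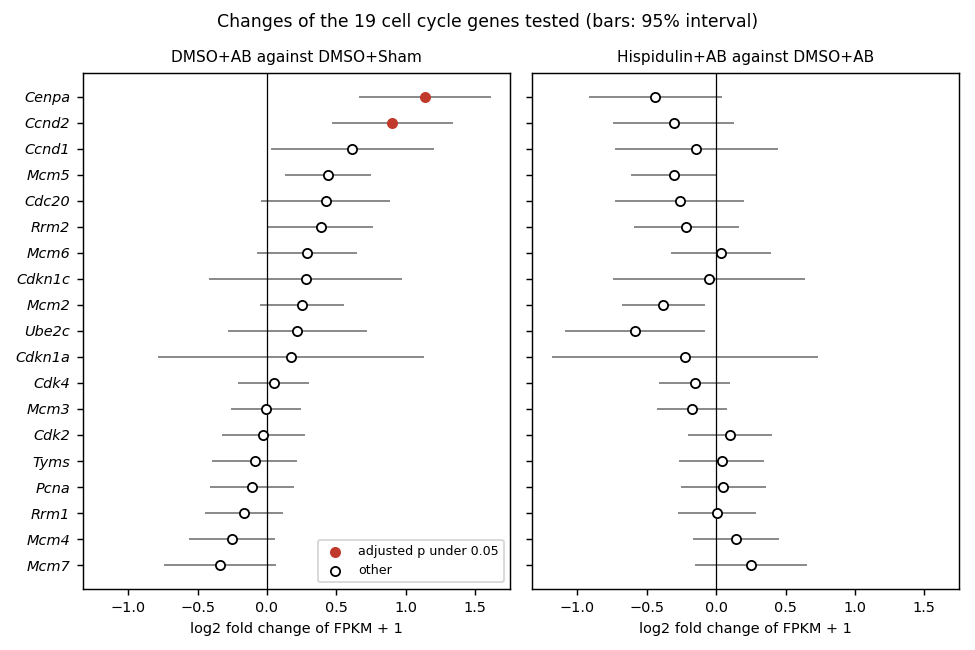
Log2 fold change of FPKM + 1 with its 95% interval for the 19 genes tested, in DMSO+AB against DMSO+Sham (left) and Hispidulin+AB against DMSO+AB (right), where filled red points mark an adjusted p under 0.05. Cenpa (1.14) and Ccnd2 (0.90) are filled on the left and no point is filled on the right.

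The 2 CDK inhibitors did not change past the threshold in either comparison. The FPKM of Cdkn1a was 46.82, 41.36 and 177.75 in DMSO+Sham, 34.54, 45.82 and 45.64 in Hispidulin+Sham, 102.27, 58.12 and 84.3 in DMSO+AB and 84.1, 50.9 and 72.36 in Hispidulin+AB. Without regard to DMSO+Sham 3, every AB mouse lay above every sham mouse, and that mouse alone exceeded all AB mice. The log2 fold change under AB was 0.175 (95% interval -0.78 to 1.13) with all mice and 0.84 without DMSO+Sham 3, and the sign differed between the series of animal numbers, at 1.01 in the lower and -1.19 in the higher. DMSO+Sham 3 was also the mouse with the highest S100a8 and S100a9, and their part in the result was not tested. The FPKM of Cdkn1c was 12.46, 15.84 and 5.41 in DMSO+Sham, 13.96, 19.21 and 13.29 in Hispidulin+Sham, 12.63, 8.85 and 18.29 in DMSO+AB and 12.69, 11.3 and 12.82 in Hispidulin+AB. Here DMSO+Sham 3 was the lowest of the 12 mice, and DMSO+AB overlapped with DMSO+Sham and with Hispidulin+AB. The log2 fold change of Cdkn1c was 0.28 under AB (95% interval -0.42 to 0.97) and -0.05 with hispidulin after AB, and its sign turned in several alternatives.

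In the sham mice, 0 of the 19 genes passed in limma between hispidulin and DMSO and 0 had an unadjusted p under 0.05, where the share of all genes was 0% and 287 had such a p. No gene of the 36 was separated between the 2 sham groups, where 2.77% of all genes tested were separated upward and 2.83% downward. The largest differences among the 19 were -0.74 for Cdkn1a and 0.52 for Cdkn1c, and in both DMSO+Sham 3 was the extreme of its group. Between Hispidulin+AB and Hispidulin+Sham, 0 of the 19 passed and 0 had an unadjusted p under 0.05, where the share of all genes was 0% and 847 had such a p. Cdkn1a was separated upward, at 50.9 to 84.1 in Hispidulin+AB against 34.54 to 45.82, with a log2 fold change of 0.69 (adjusted p = 0.824 from limma), where 9.14% of all genes tested were separated upward. Cdk4, Mcm4 and Cdkn1c were separated downward, by log2 fold changes of -0.14, -0.07 and -0.30, where 11.8% of all genes were. In this comparison Cenpa and Ccnd2 had log2 fold changes of 0.25 (adjusted p = 0.891) and 0.305 (adjusted p = 0.837 from limma).

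Whether the change under AB differed with the drug was tested as an interaction. Of the 19 genes 0 passed in limma, where the share of all genes was 0% and 289 were under 0.05 before adjustment. The 2 of the 19 with an unadjusted p under 0.05 were Cenpa, at -0.885 on the log2 scale (standard error 0.31, unadjusted p = 0.0144, adjusted p = 1), and Mcm5, at -0.54 (standard error 0.20, unadjusted p = 0.0198, adjusted p = 1). A difference between the response of DMSO-treated and hispidulin-treated mice was therefore not shown for any of the 19, and the other 17 were not tested for it.

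Other genes of the cell cycle were taken from 4 lists, of which 117 of 118 genes were in the table and 71 were tested. In DMSO+AB against DMSO+Sham, 4 passed and were higher, where 2.5% of all genes tested did. Of the other G2 and M phase genes 18 of 40 were tested, 3 passed and the median log2 fold change was 0.20. These 3 were Jpt1, at 36.94 to 59.69 in DMSO+Sham and 67.7 to 95.69 in DMSO+AB (log2 fold change 0.82, adjusted p = 0.0206 from limma), Rangap1, which acts on the GTPase Ran that guides nuclear transport and the spindle, at 12.28 to 13.21 and 17.61 to 19.88 (0.54, adjusted p = 0.0151), and Gas2l3, a linker of actin and microtubules, at 0.33 to 0.57 and 1.09 to 1.78 (0.73). Gas2l3 reached FPKM 1 only in AB mice and so entered the test through the mice in which it was high, and its call is a description only. Rangap1 and Jpt1 were, like Cenpa, expressed well above FPKM 1 in every sham mouse. Of the other S phase genes 19 of 35 were tested, with 4 higher and 15 lower and a median of -0.15. Of 28 other cell cycle regulators 21 were tested, 0 passed in limma, 2 had an unadjusted p under 0.05, against 20.4% of all genes tested, and the median was 0.03. Of 15 p53 pathway genes 13 were tested, and Phlda3 alone passed (1.22, adjusted p = 0.038), at 4.83 to 9 in DMSO+Sham and 9.02 to 22.53 in DMSO+AB, with a median of 0.10 over the list. Of 23 alternatives, the call was lost in 14 for Phlda3 (adjusted p up to 0.26), in 6 for Jpt1 (up to 0.189) and in 5 for Rangap1 (up to 0.153), and of 22 in 8 for Gas2l3.

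With hispidulin after banding, 0 of these 71 genes passed in limma and 3 had an unadjusted p under 0.05. Of all genes tested, 0% passed and 3.1% had such a p. The largest differences were 0.59 for Gadd45b, a stress-induced gene of growth arrest (10.1 to 13.85 in DMSO+AB and 16.96 to 18.52 in Hispidulin+AB, adjusted p = 0.996), -0.55 for Phlda3 and -0.53 for Cks2, a partner of CDK1, whose groups overlapped in the last 2. Medians of the 4 lists lay between -0.06 and 0.03.

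In DMSO+AB against DMSO+Sham, 5.21% of all genes tested passed and 20.4% had an unadjusted p under 0.05. Of 8 fibroblast markers, 3 passed and all 8 had a higher mean in DMSO+AB than in DMSO+Sham, with a median log2 fold change of 0.80. Their summed FPKM was 369 to 456 in DMSO+Sham, 416 to 940 in DMSO+AB, 382 to 513 in Hispidulin+Sham and 422 to 629 in Hispidulin+AB. The summed FPKM of 6 endothelial markers was 281 to 296 in DMSO+Sham and 316 to 342 in DMSO+AB, and that of 6 macrophage markers 134 to 226 and 162 to 250. In each of these 2 lists 4 markers were higher and 2 lower, 0 passed in limma and 0 had an unadjusted p under 0.05. Of 5 mural cell markers 2 were higher and 3 lower, and 0 passed in limma. The 2 higher ones, Cspg4 (0.57) and Pdgfrb (0.42), had an unadjusted p under 0.05. Both were separated upward, where 7.18% of all genes tested were. Of 8 heart muscle markers 2 were higher and 6 lower, and 2 passed, Pln (-0.62) and Ryr2 (-0.59), genes of calcium handling. Of the 7 lymphocyte and neutrophil markers 2 reached FPKM 1 in any mouse, and Cd3e, a defining T cell gene, was at 0 to 0.11. The part of these cells in the change of Cenpa, Ccnd2 or the low genes was not tested.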

How the data were processed

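The 36 genes and the other gene lists were chosen with earlier results of these data known. The authors sequenced polyadenylated RNA as single-end reads of 50 bases (BGISEQ-500) and deposited FPKM per gene and mouse, rounded to 0.01. Per the labels their processing notes name HISAT2 2.0.4, Bowtie2 2.2.5, RSEM 1.2.12 and DESeq2 1.4.5; the genome build and strand setting are not given in the sources used here. Read counts were not used, and steps between low values did not give whole reads, so depth is unknown.

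Groups and replicate numbers came from the labels. Symbols were matched by NCBI Gene ID in the RefSeq gene table for 17947 of 18079 genes (99.3%); Tp53inp1 was not matched under that spelling, and 1 gene of the lists, counted in the totals of the alternatives, is not reported here. Group means of log2(FPKM + 1) were estimated in 1 fit of the 12 libraries (limma 3.58.1, R 4.3.3, eBayes with trend, 8 residual degrees of freedom, two-sided, Benjamini-Hochberg over the 11664 genes with FPKM of at least 1 in at least 3 libraries), and the procedure was checked on simulated data. P-values measure the spread between single mice. Promoter letters were searched with Python 3.11.15. Values of every mouse are given for genes that passed, for genes separated between groups in either AB comparison, and for the inhibitors; other genes of the lists are named where they passed, or the 3 of largest change where fewer than 3 passed.

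Same-numbered libraries come from different animals. The correlation of their deviations was -0.024, -0.044 and -0.198 in DMSO+AB against DMSO+Sham, 0.3, 0.176 and -0.183 between the AB groups, 0.126, 0.33 and 0.232 between the sham groups, and 0.147, 0.197 and 0.228 between the hispidulin groups; in the last 2 every pair was over 0.1.

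Alternatives were 0.1 added before the logarithm, quantile or median-of-ratios scaling, no filter or a minimum FPKM of 5, eBayes without the trend, weights per library, the number series as a covariate, only the libraries compared, the replicate block, each library left out, and, chosen after seeing the data, the 3 libraries of highest Myl7 left out together.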

Additional observations from a re-analysis of the deposited data

How the results depend on the processing

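In DMSO+AB against DMSO+Sham the count of 2 genes passing of the 36 was 1 without a filter on low values (Cenpa), 6 with library weights, 0 with the series of animal numbers as a covariate, 0 with only the libraries compared, 0 without the 3 libraries of highest Myl7, and 0 to 4 with single libraries left out. It was 0 without DMSO+Sham 1 or DMSO+AB 2, 1 without DMSO+Sham 3 or DMSO+AB 3, and 4 without DMSO+Sham 2. For the other cell cycle genes the count of 5 was 3, 10, 0, 0 and 0 in the same order, and 0 to 8 with single libraries left out, among them 0 without DMSO+Sham 1 or DMSO+AB 2. Over all genes tested the count of 608 was 11 with only the libraries compared, 20 without the 3 Myl7 libraries, 91 without DMSO+Sham 1, 97 without DMSO+AB 2, 954 without DMSO+AB 1, 1053 without DMSO+Sham 2 and 1423 with library weights. The log2 fold change of Cenpa stayed between 0.872 and 1.378 in 23 alternatives (adjusted p from 0.00334 to 0.135) and that of Ccnd2 between 0.702 and 1.09 (adjusted p from 0.00864 to 0.206). Among the 36 the counts of 0 in the other 4 comparisons stayed at 0 in every alternative run, while over all genes that of Hispidulin+AB against DMSO+AB was 2 without the filter and 20 without DMSO+AB 1. The design of 3 mice a group set the smallest exact permutation p at 0.1.

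The change of Cdkn1a under AB turned to -0.179 with the number series as a covariate and ranged from -0.201 to 0.838 with single libraries left out. That of Cdkn1c turned to -0.091 with library weights and ranged from -0.133 to 0.564, and its change with hispidulin after AB turned to 0.137 with library weights and ranged from -0.291 to 0.194. With the replicate block the counts under AB were 2 and 5, and the block changed no call among the 36. For genes below FPKM 1, the unknown depth and the rounding to 0.01 limit what the values can show.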
